A study of Homo sapiens with 14 samples.

Results

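The genes described here encode the heterogeneous nuclear ribonucleoproteins (hnRNPs), the SR proteins with the related TRA2 proteins, and a few close partners. The set was given as 35 gene names, and a transcript was a member when its Ensembl identifier carried one of them in GENCODE release 44. Of the 35 genes, 34 were listed, through 315 of the 20512 transcripts in the profiles, and RBM39 was not listed. For each gene the protein-coding transcript of highest mean RPKM over the profiles was taken as the main transcript, and its retained-intron and nonsense-mediated decay isoforms were described beside it.

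hnRNPs and SR proteins bind nascent transcripts and mature mRNA, and they set which exons and introns are kept by helping or blocking the spliceosome. Many of their own genes carry an alternative exon or a retainable intron that brings a premature stop codon, often called a poison exon, and the proteins act on these to adjust their own amounts. An mRNA with a stop codon well upstream of its last exon junction is a substrate of nonsense-mediated decay, whereas many transcripts with a retained intron stay in the nucleus.

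RNA reactivity was probed with 2 reagents in K562, a chronic myelogenous leukemia line of bone marrow origin, with no genetic alteration added and all groups from the same line. icSHAPE used 100 mM NAI-N3 for 5 min, which acylates flexible nucleotides, in 3 in vivo and 2 in vitro libraries against 3 DMSO controls. icLASER used NAz-N3 from a 1 M stock with 10 min of UV light, which marks solvent-accessible purines, in 2 in vivo and 2 in vitro libraries against 2 controls that are titled as having no UV, although the shared protocol text names the exposure for all of them. In vivo, the reagent met living cells, and in vitro it met RNA outside them, while the RNA of every library was enriched for poly-A tails. The 14 libraries had been pooled into 4 profiles, so no replicate, spread between replicates or p-value exists for any value here, and every difference is one between single profiles. The profiles hold no counts, so the read depth behind a score is unknown.

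The 4 profiles list 16295 transcripts for icSHAPE in vivo, 12256 for icSHAPE in vitro, 16648 for icLASER in vivo and 15853 for icLASER in vitro. The number of member transcripts among them was 235, 225, 267 and 298 in that order, which is kept for every set of 4 values below. Each listed transcript had an RPKM above 5 and, at each scored nucleotide, an enrichment score between 0 and 1, where a higher score is a more reactive nucleotide. The mean score over all positions was 0.167, 0.141, 0.151 and 0.152, so the icSHAPE in vitro profile stood lower than the others as a whole. Of 13 K562 markers 11 were listed by a protein-coding transcript, and TAL1 and BCR were not. Among the 11 were the fetal globin HBG1 at 2652, 2105, 1763 and 1225 RPKM and the erythroid factor GATA1 at 87.8, 73.0, 99.7 and 85.6. Of 9 markers of other cell types 8 had no listed protein-coding transcript, and the epithelial marker EPCAM was at 23.7, 24.1, 27.1 and 20.3.

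By their main transcripts, the member mRNAs had a median mean RPKM of 16.3, against 10.8 over 3979 coding genes. RPKM is normalized for length, so levels can be set side by side between genes. HNRNPA1 and PCBP1 led the set, and 28 members were listed in all 4 profiles by their main transcript. By that transcript SRSF5 was listed in icLASER in vitro only, and HNRNPH1, HNRNPU, HNRNPUL2 and TRA2A in icLASER only.

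Among the A/B family, which binds pre-mRNA broadly and can silence exons, HNRNPA1 had an RPKM of 175, 174, 262 and 166. Its close relative HNRNPA2B1 was at 55.0, 64.0, 54.0 and 76.3. The remaining A/B members HNRNPA0, HNRNPA3 and HNRNPAB lay between 10.4 and 24.5 in all profiles. HNRNPA1 was the most abundant member in every profile, and its in vivo and in vitro levels lay close together in icSHAPE, while in icLASER the in vivo level was the higher one.

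HNRNPC, which packages nascent transcripts as a tetramer and binds uridine tracts, was at 27.4, 25.9, 21.5 and 22.0. HNRNPD, also called AUF1, which binds AU-rich elements, was at 19.1, 25.1, 25.4 and 34.7. HNRNPK, a KH-domain protein that binds cytidine-rich RNA, was at 48.9, 47.1, 33.5 and 42.7. HNRNPF, which binds guanine runs, was at a similar level, 36.6, 38.0, 29.6 and 34.8, while its relatives HNRNPH1 and HNRNPH3 lay between 7.74 and 13.8 where listed. HNRNPL, a binder of CA repeats, was higher in icLASER than in icSHAPE by 2.09 times in vivo and 2.05 times in vitro. Of the remaining hnRNPs, HNRNPDL lay between 11.2 and 19.6, and HNRNPM, HNRNPR, HNRNPU, HNRNPUL1 and HNRNPUL2 between 6.59 and 14.1 except for HNRNPM in icLASER in vitro.

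Of the SR proteins, SRSF3, the smallest of the family, was at 29.3, 30.3, 24.0 and 28.5. SRSF1, a general activator of exon inclusion, was at 23.2, 23.5, 14.6 and 26.5. SRSF9, which resembles SRSF1, was at 29.6, 26.6, 32.1 and 29.8. SRSF2 and SRSF6 lay in the same range, from 15.3 to 28.3, and SRSF4, SRSF7, SRSF10 and SRSF11 lay lower, from 7.54 to 18.3. TRA2B, which activates exons through GAA-rich enhancers, was at 16.7 in icSHAPE in vivo and at 9.69 and 12.5 in icLASER, and TRA2A at 6.60 in both icLASER profiles.

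Among the partner proteins, PCBP1, a KH-domain protein from an intronless gene, was at 50.003, 66.4, 146 and 125. PCBP2, its intron-containing relative, was at 15.7, 18.1, 34.2 and 26.6. PTBP1, the polypyrimidine tract-binding repressor of exons, was at 20.6, 14.9, 18.2 and 21.6, and SYNCRIP, an hnRNP-like protein that binds A-rich RNA, at 7.85, 8.99, 6.44 and 12.5. Both PCBP mRNAs were higher with icLASER than with icSHAPE in each condition, by 2.93 and 1.89 times for PCBP1. Over the members measured with both reagents the median of that ratio in vivo was 0.983.

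The comparison of RPKM in vivo with in vitro asked whether the RPKM of each mRNA differed between the conditions. Reagent libraries were enriched for modified RNA, and which libraries the RPKM rests on is not given, so RPKM need not equal the amount of mRNA. The median log2 ratio of the members was -0.15 in icSHAPE, where 20 of 28 lay below 0, and -0.23 in icLASER, where 27 of 33 did. Over all coding genes the medians were 0.09 in icSHAPE and 0.06 in icLASER. A change was called at a ratio of 2 in either direction, a limit that 0.126% of all coding genes passed upward and 0.419% downward in icSHAPE, and 0.275% and 0.378% in icLASER. No member passed it in icSHAPE, where SRSF4 came nearest with a ratio of 0.524. HNRNPM, an RRM protein that binds GU-rich RNA, alone passed it in icLASER, with 7.498 in vivo and 28.2 in vitro, a log2 ratio of -1.91, and with the Ensembl canonical transcript of that gene the log2 ratio was -0.66 and the call ended. SYNCRIP and SRSF1 followed with ratios of 0.515 and 0.553, and the highest ratio was that of HNRNPA1, 1.58. With log2 ratios centred on the median of all main transcripts, SRSF4 passed the limit in icSHAPE, at -1.03. SYNCRIP then passed it beside HNRNPM in icLASER, at -1.02. Without the 8 members that share at least 20% of their 30-nt words with annotated transcripts of other genes, the medians were -0.21 and -0.23. Those 8 are HNRNPA1, HNRNPC, HNRNPK, HNRNPL, HNRNPUL2, SRSF1, SYNCRIP and PCBP2, and their values are uncertain throughout. With an RPKM of at least 20 in both profiles the medians moved toward 0, to -0.02 over 11 members in icSHAPE and -0.10 over 12 in icLASER. With canonical transcripts they were -0.08 over 24 members and -0.21 over 30.

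Genes of related function were placed beside the members in the same comparison. A gene of these lists counted as listed only through a protein-coding transcript, and transcripts of other classes were not counted. The core spliceosome list, of which 37 of 39 genes were listed, had a median log2 ratio of 0.03 in icSHAPE over 30 genes and -0.02 in icLASER over 33. Of that list 1 of 30 genes passed the limit in icSHAPE, downward, and 0 of 33 did in icLASER. The other RNA-binding regulators of splicing, 29 of 38 listed, had medians of -0.20 over 18 genes and -0.07 over 21, with 0 past the limit. The nonsense-mediated decay factors, 8 of 15 listed, had medians of 0.03 over 4 genes and 0.12 over 5. Of 7 SR protein kinases only CLK1 was listed in this way, in 1 profile, at 7.90. These lists describe the same pooled profiles and no test separates them from the members.

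Isoforms with a retained intron or a decay annotation made up a larger share of the members' transcripts than of all transcripts. Of the 315 member transcripts, 186 were coding, 67 from 22 genes were retained-intron isoforms and 42 from 20 genes were decay isoforms, the last 2 being 21.3% and 13.3% against 15.3% and 8.22% of all listed transcripts with a gene name. The decay isoforms had a median mean RPKM of 10.9, and the median of their ratio to the main transcript was 0.731. The retained-intron isoforms had 10.1 and 0.506. Above the main transcript were 1 retained-intron isoform, in HNRNPL at 1.11 times, and 3 decay isoforms, among them 1 of SRSF6 at 1.13 times. Because isoforms share most of their exons and the handling of reads that match several transcripts is not given in the sources used here, isoform RPKM may divide or repeat the same reads.

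By class, the in vivo to in vitro ratio of RPKM was on the same side as for the main transcripts in icLASER. The median log2 ratio was -0.24 over 167 coding transcripts, -0.14 over 49 retained-intron isoforms and -0.25 over 34 decay isoforms, and those below 0 were 130, 31 and 28. Over all genes the 3 medians were 0.08, 0.11 and 0.09. Past the limit of 2 in icLASER were 5 coding transcripts, 1 retained-intron isoform and 1 decay isoform, all lower in vivo, where the share of all transcripts of the class called lower was 0.56%, 1.68% and 1.05%, and called higher 0.187%, 0.559% and 0.0957%. In icSHAPE the members' medians were -0.03, -0.05 and -0.05, and 1 coding transcript passed, downward. Over all transcripts of the 3 classes 0.399%, 1.51% and 0.577% were called lower in icSHAPE and 0.0639%, 0.121% and 0% higher.

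Sequences from 6 exons of decay isoforms are shown first. The stop codon inside these exons is what sets the isoforms apart from the coding mRNA. All are exons of a decay isoform that no annotated coding transcript of the gene contains. Each line gives 27 nt in the 5′ to 3′ direction from GENCODE release 44, with the stop codon of the annotated reading frame in capitals.
SRSF3 exon of 456 nt, chr6:36599821-36600276 (+): cucaccacccucUGAaucugcauuagc
SRSF6 exon of 268 nt, chr20:43459153-43459420 (+): gccuuuugccauUAGacgcagggugau
TRA2B exon of 276 nt, chr3:185931577-185931852 (-): cucaggaauaagUGAagcugaaauuug
SRSF7 exon of 449 nt, chr2:38748898-38749346 (-): agucagucgccuUGAuucagaauguca
SRSF9 exon of 90 nt, chr12:120464733-120464822 (-): aaaacuauUAGgaaauggcugcagucc
HNRNPL exon of 70 nt, chr19:38841613-38841682 (-): gcuaacucacuguUGAagcguccaaug
All coordinates are GRCh38. The stop lay 548, 534, 1015, 688, 252 and 842 nt upstream of the last exon junction of the isoform, in the order of the lines. Of the 10 such exons, in 7 genes, 9 held the stop codon and 1, in PCBP2, did not.

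The 456-nt exon of SRSF3 gave opposite pictures with the reagents. The decay isoform that carries it, ENST00000477442, was at 19.8, 20.8, 21.4 and 22.5 RPKM, so it was listed at nearly the same level in all profiles. In icSHAPE the mean score of the exon was 0.30 in vivo and 0.210 in vitro, against 0.0877 and 0.0708 over the exons it shares with coding transcripts. In icLASER the order turned, with 0.0785 in vivo and 0.0133 in vitro against 0.238 and 0.225. By mean score the exon was the higher part of this isoform with NAI-N3 and the lower part with NAz-N3, in both conditions. Its icLASER in vitro mean lay near 0, and without counts a low score cannot be told from low read depth. The shared exons were low in icSHAPE beside the coding sequence of the SRSF3 main transcript, which scored 0.224 in vivo and 0.201 in vitro.

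At the edges of that exon the icSHAPE score moved within a single 30-nt bin. In vivo it was 0.224 in the first 30 nt of the exon and 0.354 in the last whole bin. In icLASER in vitro no whole bin inside the exon was above 0.0234. The GC content of the exon was 51.3%.

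**Figure D1:**
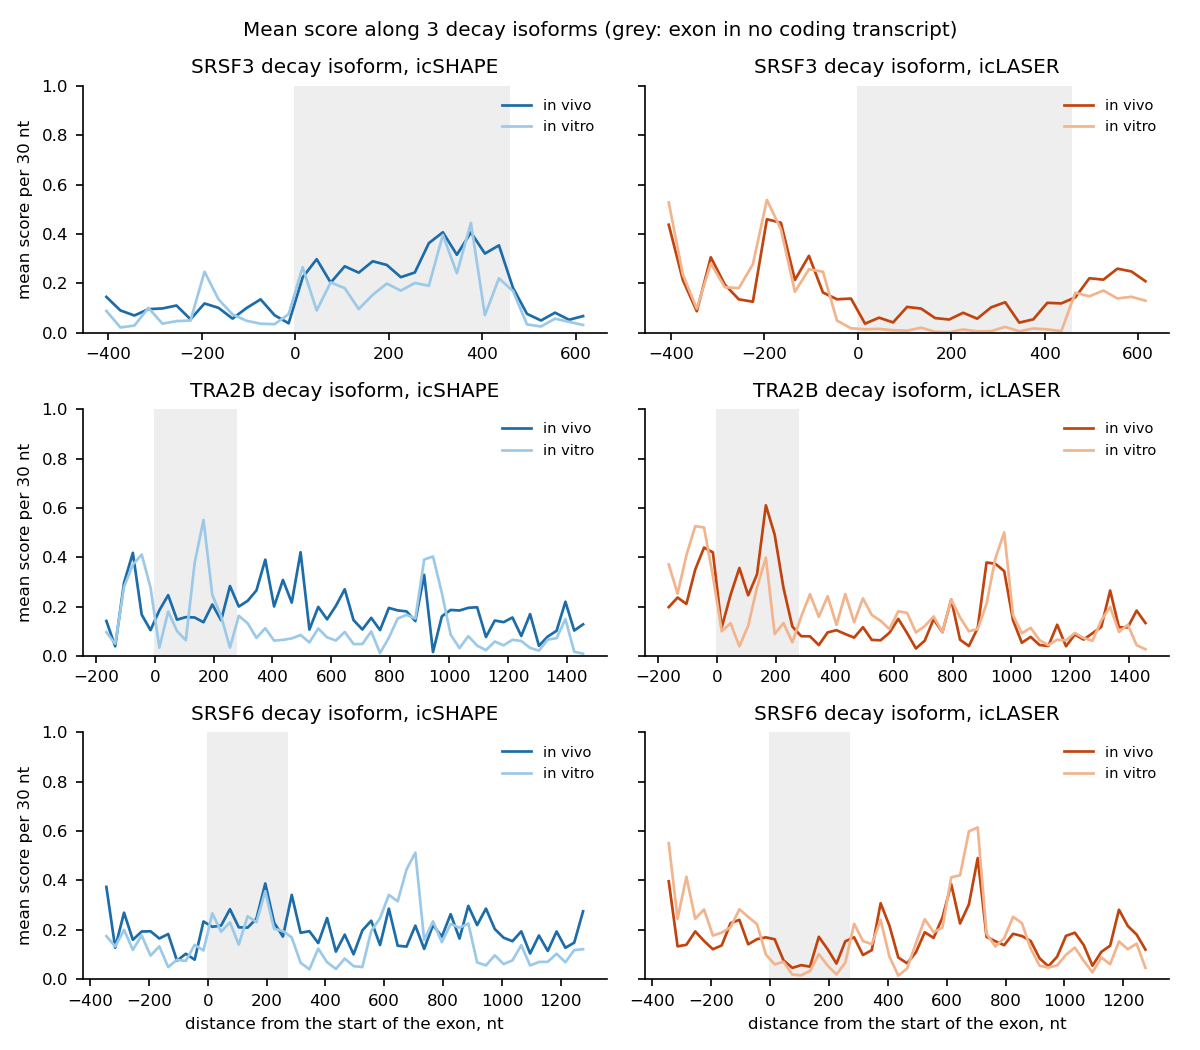
Mean score in bins of 30 nt against the distance from the start of the decay exon, in nt, for SRSF3, SRSF6 and TRA2B, with a line for each of the 4 profiles and the exon shaded grey. In SRSF3 the icLASER in vitro line stays at or below 0.0234 inside the exon, and in TRA2B the icLASER in vivo line peaks at 0.611 from nt 151 to 180.

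The 268-nt exon of SRSF6 resembled that of SRSF3. Its isoform was at 29.2, 30.4, 17.6 and 29.2 RPKM. The exon scored 0.242 and 0.231 in icSHAPE against 0.186 and 0.142 in the shared exons, and 0.0979 and 0.0466 in icLASER against 0.178 and 0.197. As in SRSF3, it stood above the shared exons with NAI-N3 and below them with NAz-N3.

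The 276-nt exon of TRA2B, the known target of TRA2B autoregulation, stood above its shared exons in icSHAPE in vitro as in SRSF3 and SRSF6. In icSHAPE in vivo the exon was nearly level with its shared exons. It departed from the SRSF3 and SRSF6 exons in icLASER in vivo. Its isoform was at 12.5, 12.8, 7.31 and 11.7 RPKM. In icSHAPE the exon scored 0.184 in vivo and 0.190 in vitro, against 0.181 and 0.116 in the shared exons. In icLASER the exon scored 0.303 in vivo and 0.150 in vitro, against 0.146 and 0.190 in the shared exons, so it was above them in vivo and below them in vitro. Between nt 151 and 180 of the exon the score was 0.611 in vivo and 0.398 in vitro in icLASER, and 0.136 in vivo and 0.551 in vitro in icSHAPE. In that stretch the score was higher in vivo with NAz-N3 and lower in vivo with NAI-N3.

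The remaining decay exons were mostly low in icLASER, as separate exons in no coding transcript were over all coding genes. Of 243 such exons, 234 lay below the rest of their isoform in vivo, and 84.8% were called lower. The 90-nt exon of SRSF9 scored 0.0470 in vivo and 0.108 in vitro against 0.173 and 0.163 in the shared exons. The 449-nt exon of SRSF7 scored 0.115 and 0.146 against 0.178 and 0.177. The 70-nt exon of HNRNPL scored 0.0571 and 0.108 in icLASER and 0.0708 and 0.0630 in icSHAPE, below the shared exons with both reagents. A 98-nt exon of SRSF3 (chr6:36598429-36598526) scored 0.0816 in vivo and 0.125 in vitro in icSHAPE against 0.167 and 0.0898 in the shared exons, below them in vivo and above them in vitro.

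For all isoforms together, each block of sequence that lies in no exon of the main transcript was compared with the rest of the same isoform. In icLASER in vivo 121 blocks in 21 genes could be measured, and 78 of them, 64.5%, were lower than the rest by at least 0.05, beside 66.8% of 3374 blocks over all coding genes. The share in icLASER in vitro was 51.2%, beside 49.2%. In icSHAPE 80 blocks in 16 genes gave 45.0% in vivo and 38.8% in vitro, beside 49% and 53%. By the share of scores of at least 0.5 these became 26.3% and 30% of the members' blocks, beside 32.6% and 43.6%. The same measure gave 57.0% in vivo and 40.5% in vitro in icLASER, beside 51.5% and 33.7%. By the mean score the members' percentage of lower blocks was near that of all genes in icLASER. By the share of scores it lay above that of all genes. In icSHAPE it lay below that of all genes by both measures, most so in vitro.

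Some of these blocks are coding sequence of other transcripts. The blocks of highest abundance were of this kind and lie in HNRNPA1, whose decay isoform ENST00000547566 had a mean RPKM of 75.4. Against 0.203 and 0.207 in icSHAPE and 0.180 and 0.213 in icLASER over the rest of that isoform, its last exon, chr12:54286953-54287088 (+), scored 0.125 and 0.192 in icSHAPE and 0.187 and 0.0786 in icLASER. An exon of 75 nt, chr12:54282800-54282874 (+), scored 0.0560 and 0.122 in icSHAPE and 0.241 and 0.150 in icLASER. An exon of 71 nt, chr12:54286662-54286732 (+), scored 0.114 and 0.103, and 0.181 and 0.0573. In icLASER each of the 3 was more reactive in vivo than in vitro, and so was a 69-nt extension at chr12:54282597-54282665 (+), with 0.273 and 0.128. A 104-nt extension in a retained-intron isoform of HNRNPA1, chr12:54283723-54283826 (+), went the other way, with 0.197 in vivo and 0.288 in vitro. HNRNPA1 shares 68.6% of its 30-nt words with 83 other genes, the most with HNRNPA1L3, so its values are uncertain.

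When only sequence in no exon of any annotated coding transcript was kept, a choice made after seeing the data, the icLASER difference was wider. In vivo 66 blocks in 16 genes had a median score of 0.0664, against 0.202 in the rest of their isoforms. Of these, 64 lay below the rest and 60, or 90.9%, by at least 0.05, beside 83% over all coding genes. In vitro the medians were 0.107 and 0.184, and 60.6% were called lower beside 62.9%. The median share of positions scored 0 in vivo was 91.3% in the blocks and 40.5% in the rest. In icSHAPE in vivo 24 of 40 blocks, 60%, were called lower beside 66.4%, and in vitro 42.5% beside 69.4%. Some blocks overlap between isoforms of a gene, so they are not independent.

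**Figure D2:**
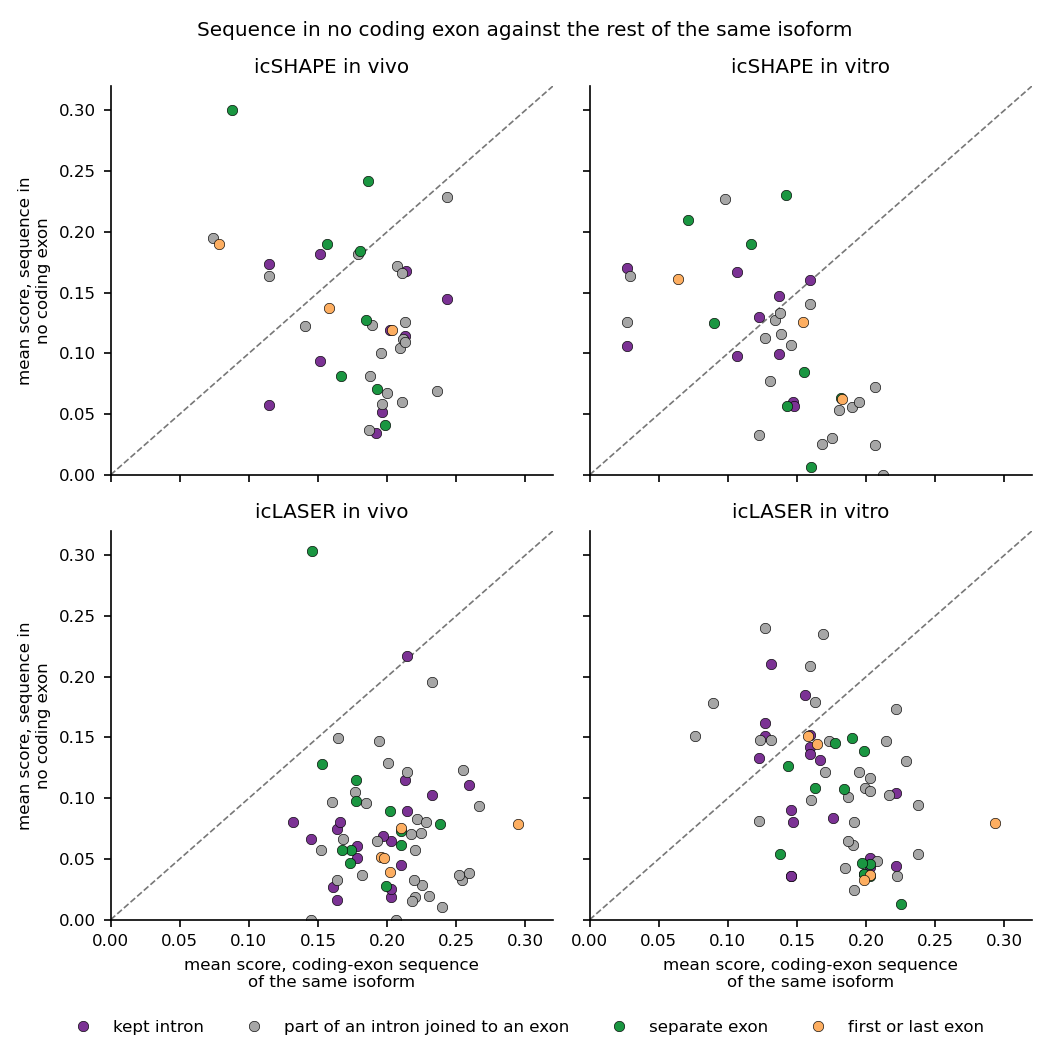
Mean score of sequence in no exon of a coding transcript (vertical axis) against the mean score of the rest of the same isoform (horizontal axis), with 1 point for each block, coloured by its kind, and a panel for each profile. In icLASER in vivo 64 of 66 points lie below the line of equal scores, with TRA2B the point furthest above it.

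Blocks that scored above the rest were fewest in icLASER in vivo. In icLASER in vivo only the TRA2B exon and a 167-nt kept intron of SRSF3, at 0.217 against 0.214, were above the rest, 2 of 66 beside 7.95% over all coding genes. In icSHAPE in vivo 10 of 40 blocks were above the rest, beside 16.5%, with 5 of them in SRSF3 and 1 each in SRSF6, SRSF7, SRSF9, TRA2B and HNRNPA2B1. In vitro 14 of the 40 were above the rest in icSHAPE beside 18.6%, 7 of them in SRSF3. In icLASER in vitro 13 of the 66 were, 5 of them in PCBP2, beside 21.4%. The 5 SRSF3 blocks above the rest in vivo overlap in part, and the rest of their isoforms scored low, from 0.0743 to 0.114. The block of highest abundance among them, an extension of 749 nt at chr6:36600403-36601151 (+), scored 0.164 and 0.125 in icSHAPE and 0.121 and 0.174 in icLASER. In the 5′ UTR of SRSF3 the score was 0.0356, 0.0389, 0.0352 and 0.0461, low with both reagents.

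Long intron sequence of 3 members is described as an example of the blocks that were above the rest in vitro alone in icLASER, chosen after the values were seen. The 2705-nt intron kept in an HNRNPA2B1 isoform, chr7:26197867-26200571 (-), scored 0.0504 in vivo and 0.151 in vitro, whereas the rest of the isoform scored 0.178 and 0.127. In TRA2B an intron stretch of 2339 nt, chr3:185926735-185929073 (-), scored 0.0108 and 0.148 against 0.240 and 0.123. In PCBP2 a stretch of 1215 nt, chr12:53459800-53461014 (+), scored 0.0645 and 0.178 against 0.192 and 0.0894. In each the intron was the lower part of the isoform in vivo and the higher part in vitro.

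Of the 18 whole introns kept in isoforms of 10 members and measured in icLASER, 12 were the lower part of the isoform in both conditions, 5 were the higher part in vitro alone and 1, the 167-nt intron of SRSF3, in vivo alone. Over the 741 such introns of all coding genes the shares were 71.7%, 22.9% and 2.43%, so the members' counts were near the background. The 5 lay in HNRNPA2B1, PCBP2 and SRSF7. The 1214-nt intron of HNRNPD, chr4:82357445-82358658 (-), scored 0.0190 and 0.0904 against 0.203 and 0.145, and remained lower in vitro. An 888-nt intron of SRSF4 scored 0.0449 and 0.0506 against 0.210 and 0.203. A 517-nt intron of SRSF3, chr6:36601191-36601707 (+), scored 0.0895 in vivo and 0.0442 in vitro in icLASER, against 0.214 and 0.222, and 0.0577 and 0.106 in icSHAPE. Whether the shared exons carry reads of the coding mRNA in place of the isoform's own was not tested. The median score of the 18 introns was 0.0677 in vivo and 0.118 in vitro.

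Turning to the main transcripts, the mean score over positions scored in both conditions rose from in vitro to in vivo in icSHAPE about as it did in all genes. The median difference was 0.0289 for 28 members and 0.0298 for all coding genes, and 27 of the 28 lay above 0. By a limit of 0.05, 3 members were called higher in vivo, 10.7% beside 13.5% of all coding genes. SYNCRIP scored 0.177 in vivo and 0.104 in vitro. HNRNPM scored 0.211 and 0.157, over a main transcript of 1086 nt that has no annotated 3′ UTR. HNRNPC, which shares 46.1% of its 30-nt words with other genes, scored 0.208 and 0.158. HNRNPA1 was the only member below 0, with 0.199 in vivo and 0.211 in vitro. With each profile divided by its own mean, 14 members lay above 0 and 0 were called.

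In icLASER the members' mean scores were spread around 0 difference. NAz-N3 scores depended on the base, and in vivo the members' mean was 0.30 for G, 0.154 for A, 0.131 for U and 0.0956 for C. The median difference was 0.000405, with 17 members above and 16 below 0, and 0.00542 over all coding genes. SYNCRIP alone was called, lower in vivo, with 0.128 in vivo and 0.182 in vitro, where 1.41% of all genes were called higher and 1.79% lower. By the share of scores of at least 0.5 that call ended and 0 members were called, and with canonical transcripts 2 were called lower. SYNCRIP was higher in vivo with NAI-N3 and lower with NAz-N3, and it shares 63.2% of its 30-nt words with 2 other annotated genes. SRSF1 moved in the same directions, by 0.0470 and -0.0355, and shares 59.5%. Without the 8 members of high sharing, 1 member was called higher in icSHAPE and 0 lower in icLASER.

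Beside the members, 8 of 30 core spliceosome genes were called higher in icSHAPE and 0 of 33 were called in icLASER. Of the other regulators of splicing 3 of 18 were called higher in icSHAPE and 1 of 21 lower in icLASER. Of the decay factors 1 of 4 and 1 of 5 were called in the same directions. The members' 3 of 28 lay below the share of the spliceosome list, and no test of that difference was made.

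By region, the icLASER difference had opposite signs at the ends of the mRNAs. In the 5′ UTR 19 of 25 members, 76.0%, were called lower in vivo beside 46.9% of all coding genes, with a median difference of -0.0950 against -0.0443. In the 3′ UTR 15 of 25, 60%, were called higher beside 51.8%, with medians of 0.0627 and 0.0523. In the coding sequence 4 of 28, 14.3%, were called lower beside 10.1%, and 0 higher beside 6.49%, and by the share of scores of at least 0.5 there were 0 lower and 1 higher. None was called higher in the 5′ UTR, beside 7.94%, or lower in the 3′ UTR, beside 1.1%. The members had the direction of all genes in both UTRs, and their share stood further above that of all genes in the 5′ UTR.

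Individual members showed the size of these differences. The 5′ UTR of SRSF1 scored 0.181 in vivo and 0.367 in vitro in icLASER, and that of HNRNPA3 0.247 and 0.440. The 3′ UTR of HNRNPL, in ENST00000601449, scored 0.360 in vivo and 0.132 in vitro. That of HNRNPK scored 0.210 and 0.0685, and that of HNRNPF 0.241 and 0.0977. The main transcripts of HNRNPL and HNRNPK share 46.6% and 46.2% of their 30-nt words with other genes. In 11 of the 23 members with both UTRs measured, the 5′ UTR was called lower and the 3′ UTR higher, beside 27.9% of all coding genes with both measured. Among them were HNRNPF, HNRNPK and HNRNPR, whose 5′ UTRs fell by 0.114, 0.0744 and 0.130 while their 3′ UTRs were higher.

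In icSHAPE the regions showed no such opposition. In the 5′ UTR 8 of 20 members were called higher and 4 lower, 40% and 20% beside 31.3% and 12.4% of all genes. In the coding sequence 5 of 22 were called higher and 0 lower, beside 22% and 1.92%. These coding calls ended under another scaling, with 0 higher and 2 lower when each profile was divided by its own mean, and 0 higher and 1 lower by the share of scores of at least 0.5. In the 3′ UTR 4 of 20 were called higher and 0 lower, beside 25.5% and 3.11%, which became 3 higher and 1 lower and 2 higher and 0 lower under the same alternatives. HNRNPA1, HNRNPH3, HNRNPA2B1 and SRSF10 were higher in the 5′ UTR by 0.261, 0.219, 0.198 and 0.192. HNRNPM was lower there by the most, with 0.193 in vivo and 0.518 in vitro. The 5′ UTR values of HNRNPA1 and HNRNPM each rest on 22 scored positions, and 3′ UTR means leave out unscored positions at the transcript end.

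Along the length of the main transcripts, divided into 10 equal parts, the icLASER difference was below 0 at the 5′ end and above 0 at the 3′ end. Transcripts annotated without a UTR were included, such as those of HNRNPM, with no 3′ UTR, and TRA2B, with no 5′ UTR. The median over 33 members was -0.0710 in part 1, at the 5′ end, where 30 lay below 0, and 0.133 in part 10, where 31 lay above 0. Between them it did not climb at every step, with -0.0241 in part 3 and -0.0349 in part 4. Over all coding genes it went from -0.0579 to 0.125. In icSHAPE the members' median was 0.0493 in part 1 and 0.0124 in part 10. In icLASER in vitro the median score itself fell from 0.251 to 0.0813 along the members' mRNAs, whereas in vivo it was 0.168 in part 1, fell to 0.116 in part 8 and was 0.216 in part 10.

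**Figure D3:**
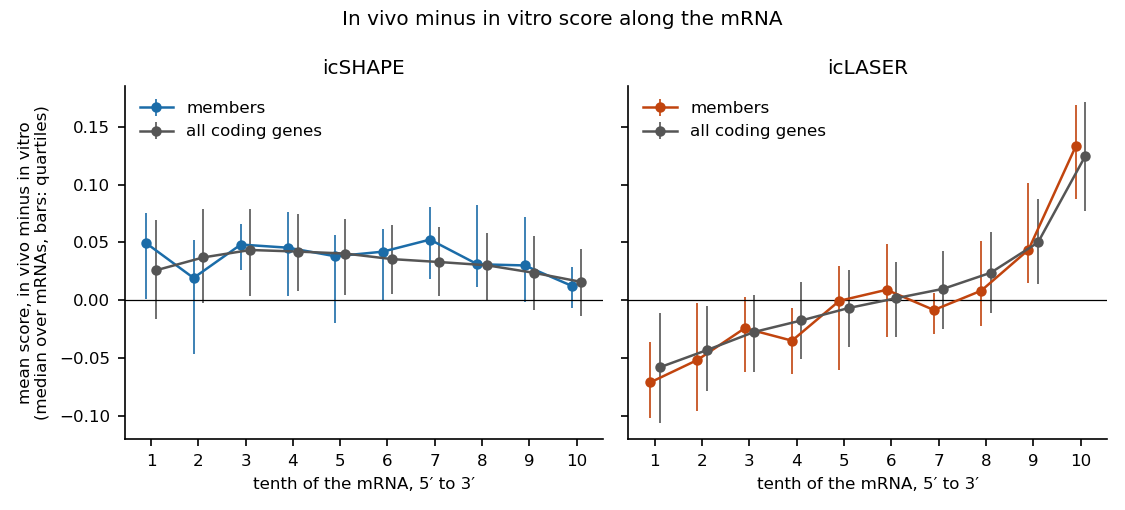
Median in vivo minus in vitro score in 10 equal parts of the main transcripts, from the 5′ end (1) to the 3′ end (10), for members and all coding genes and both reagents, with bars from the lower to the upper quartile over mRNAs. In icLASER the members go from -0.0710 to 0.133 and all coding genes from -0.0579 to 0.125.

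Coding stretches among the 3 largest changes of each kind, in windows of 30 nt, are shown so that their scores can be read beside the sequence. They were picked as the largest falls or rises among all members, so their size is a description. Capitals mark nucleotides whose score differed by at least 0.3 in the direction and reagent named, and, for the falls with both reagents, in at least 1 of them.
HNRNPA1, icSHAPE fall, chr12:54284271-54284300 (+): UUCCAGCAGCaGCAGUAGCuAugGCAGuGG
HNRNPA3, icSHAPE fall, chr2:177216052-177216081 (+): AUAuAaUUUGagaGACUACuUUGaaAAGUA
SRSF10, icSHAPE rise, chr1:23978742-23978771 (-): GaUgUgUaUGuucCaCuugAUUUCUaCaCu
SRSF1, icLASER fall, chr17:58006410-58006439 (-): acaGGcCGAGGcgGcgGcggGgGUgGaGGU
HNRNPA3, icLASER fall, chr2:177216023-177216052 (+): GUuGGuGGuAUuAaAGaagAuacAgAAGaa
HNRNPA3, fall with both, chr2:177216037-177216066 (+): AGAagAuacAGAAGaAUAUAaUUUGAGaGA
HNRNPA3, fall with both, chr2:177216518-177216547 (+): CUaUUAAugGgCAuaaUUGUGAAGUGAaaa
HNRNPD, fall with both, chr4:82359528-82359557 (-): GacuGCaCUcuGAAGUUaGaUCCuaUcACA
The sequences are those of GENCODE release 44 on GRCh38.

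The HNRNPA1 stretch scored 0.142 in vivo and 0.744 in vitro in icSHAPE, while in icLASER it scored 0.746 and 0.687. Its score was high with NAz-N3 in both conditions and with NAI-N3 in vitro alone. The SRSF1 stretch, with a GC content of 80.0%, scored 0.0333 in vivo and 0.548 in vitro in icLASER, and 0 and 0.1 in icSHAPE. In SRSF10 the stretch scored 0.52 in vivo and 0.1 in vitro in icSHAPE.

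HNRNPA3 and HNRNPD held the largest falls seen with both reagents. The HNRNPA3 stretch printed last scored 0.332 in vivo and 0.726 in vitro in icSHAPE, and 0.243 and 0.566 in icLASER. The HNRNPD stretch scored 0.252 and 0.551 in icSHAPE, and 0.404 and 0.70 in icLASER. The first HNRNPA3 stretch with both differed by -0.34 in icSHAPE and -0.35 in icLASER, and it overlaps the HNRNPA3 stretches printed for icSHAPE and icLASER alone, which scored 0.286 in vivo and 0.792 in vitro in icSHAPE and 0.312 and 0.745 in icLASER. HNRNPA3 held 2 separate coding stretches that were less reactive in vivo to both reagents. Over its whole transcript 19.4% of the 30-nt words occur in other genes, the most in HNRNPA3P6. Whether the shared words cover these stretches was not tested.

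The largest rise among the members' windows lay near the end of HNRNPF, where a 3′ UTR stretch at chr10:43386052-43386081 (-) scored 0.838 in vivo and 0.0669 in vitro in icLASER and 0.0170 and 0.0524 in icSHAPE. Stretches in the 3′ UTRs of HNRNPUL1 and HNRNPA3 rose by 0.533 and 0.504 in icLASER. Outside the coding sequence, a 3′ UTR stretch of SRSF1 scored 0.0931 in vivo and 0.579 in vitro in icLASER. A 3′ UTR stretch of HNRNPA3 scored 0.785 and 0.314 in icSHAPE, and a 5′ UTR stretch of HNRNPAB 0.0568 and 0.553. Over all non-overlapping windows of 30 nt, 4.53% of the members' 1963 windows were higher in vivo by at least 0.2 in icLASER and 3.11% lower, beside 2.89% and 3.15% over all coding genes. In icSHAPE 2.99% of 1538 windows were higher and 2.93% lower, beside 2.6% and 2.15%.

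Sequence motifs bound by the member proteins were searched in the sense strand of the main transcripts that match in length, counting overlapping matches. The difference in vivo minus in vitro was taken over the nucleotides of all matches, and a match does not show that a protein is bound. At UUUUU, the hnRNP C motif, the icLASER difference was 0.111 in 24 members and 0.0609 in the other coding genes, but in coding sequence alone it was 0.0140 and 0.00433. At UCUUU, bound by PTBP1, it was 0.0846 and 0.0370, and 0.0507 and 0.0164 in coding sequence alone. In icSHAPE the UUUUU difference went the other way, from 0.0622 over whole transcripts to 0.0958 in coding sequence in the members, and from 0.0581 to 0.0799 in the other genes. The icSHAPE difference at UCUUU was 0.0678 in the members and 0.0431 in the other genes, and 0.151 and 0.0460 in coding sequence alone.

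At GAAGAA, bound by TRA2 and some SR proteins, the icLASER difference was lower, -0.0920 in the members and -0.0458 in the other genes. In coding sequence alone the values were -0.112 and -0.0505. The icSHAPE difference at GAAGAA was 0.000838 in the members and 0.00835 in the other genes, and 0.00372 and 0.00317 in coding sequence alone. The AU-rich motif AUUUA, bound by hnRNP D, had a difference of 0.0675 in icSHAPE against 0.0293 in the other genes, and 0.146 against 0.0640 in coding sequence alone. In icLASER its difference was 0.0147 against -0.00377 over whole transcripts and turned to -0.0500 against -0.0369 in coding sequence. UAGGG, bound by hnRNP A1, had -0.0617 in icSHAPE over 13 matches in 9 members, against -0.00649, and -0.0105 in icLASER against -0.00791. In coding sequence alone the icSHAPE difference was -0.141 over 25 nucleotides in 4 members, against -0.00223. The members' icLASER value was not stable, with -0.0713 in coding sequence alone and 0.0444 when each score was assigned to the next nucleotide upstream. At the SR motif GGAGGA the icLASER difference was -0.0204 in the members and -0.0342 in the other genes, and the icSHAPE difference 0.0143 and 0.0236. In coding sequence alone the members' icSHAPE difference there turned to -0.00537, with 0.0228 in the other genes. At GGGG, bound by hnRNP F and hnRNP H, they were -0.00788 and -0.0127 in icLASER, and 0.0226 and 0.0203 in icSHAPE, and in coding sequence alone the members' icLASER difference turned to 0.00547 against -0.0168. At CCCC, bound by PCBP proteins and hnRNP K, the members and the other genes had 0.0253 and 0.0204 in icLASER, and 0.0147 and 0.0169 in icSHAPE. At the hnRNP L motif CACACA they had opposite signs in icLASER, -0.0133 over 12 matches in the members and 0.0154 in the other genes, and in coding sequence alone both were above 0, 0.0169 and 0.00651. In icSHAPE they had 0.0205 and 0.00618 at CACACA.

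Matches in the mRNA of the binding protein itself were few. The 4 UCUUU matches in PTBP1 mRNA had differences of 0.146 in icLASER and 0.127 in icSHAPE. The 10 UUUUU matches in HNRNPC mRNA had 0.0453 and 0.0649. The 2 UAGGG matches in HNRNPA2B1 mRNA had 0.155 and 0.0685. At GGGG the 18 matches in HNRNPF mRNA had -0.0190 and 0.00323, the 6 in HNRNPH3 mRNA 0.0269 and 0.0241, and the 13 in HNRNPH1 mRNA 0.0160 in icLASER. The single AUUUA match in HNRNPD mRNA had -0.0580 in icLASER and 0.147 in icSHAPE, and the 3 GGAGGA matches in SRSF1 mRNA -0.0366 and 0.196. The CCCC matches had -0.0199 and 0.0624 over 9 in PCBP2 mRNA, and 0.0317 and -0.00613 over 6 in HNRNPK mRNA. The single GAAGAA match in TRA2A mRNA had -0.0178 in icLASER. With each score assigned to the next nucleotide downstream, the icLASER values at GGGG in HNRNPH1 and HNRNPH3 mRNA turned to -0.0235 and -0.00738. Those at GGAGGA in SRSF1 mRNA and CCCC in PCBP2 mRNA turned to 0.00911 and 0.00337. The HNRNPA2B1 value became 0 in icLASER, and the HNRNPF value turned to -0.00128 in icSHAPE. The remaining values kept their sign.

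Agreement between profiles was described by Pearson's r across the positions of each main transcript, which share their base composition and local depth. Between conditions the median r was 0.487 over 28 members in icSHAPE and 0.591 over 33 in icLASER, against 0.478 and 0.534 over all coding genes. Between reagents it was 0.30 in vivo and 0.442 in vitro, against 0.322 and 0.349. PCBP1 had the highest r between conditions with both reagents, 0.735 and 0.780, and SYNCRIP the lowest, 0.287 and 0.341. In the members the median r between reagents was higher in vitro than in vivo.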

How the data were processed

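icSHAPE and icLASER reactivity was measured in 14 K562 libraries, which the authors pooled into 4 profiles, 1 for each reagent and condition. They aligned reads to transcripts of Ensembl release 88 and scored them with the icSHAPE pipeline without its final minimum on hit coverage and background base density. Trimmomatic, Bowtie2 and GRCh38 are named in the submitters' processing notes. The authors deposited an RPKM value for each transcript, and which libraries it rests on is not given in the sources used here. The authors also deposited an enrichment score from 0 to 1 for each nucleotide, made by comparing the reagent libraries with their controls. 16 scores outside this range were left out, and 0 columns of other samples were present.

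Values were computed from the deposited profiles with Python 3.11.15, numpy 2.4.6 and scipy 1.17.1 and drawn with matplotlib 3.10.9. Gene names, classes, regions and sequences came from GENCODE release 44. Positions were placed on the sequence only for the 15325 transcripts whose length matched, and for 29 members such a coding transcript existed. Where the main transcript did not match in length, regions, motifs and windows used the matched coding transcript of highest mean RPKM.

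Scores were compared over nucleotides scored in both profiles, with at least 100 for a transcript and 20 for a region or block. Differences were called at 0.05 in score, at 2 in the RPKM ratio and at 0.2 in a window of 30 nt. With 1 pooled profile in each condition no test could be made, so counts and medians stand beside those of all coding genes. Shared sequence was the percent of a transcript's 30-nt words found in annotated transcripts of other genes, and 20% was the limit. The computations were tested on simulated data, in which they returned what had been planted. All 35 genes, blocks with at least 60 scored nucleotides in both in vivo profiles (the 8 of highest RPKM in full), and the 3 largest window falls and rises with each reagent and falls with both were to be named. One of these windows is not reported here. The decay exons were all given or summarised because of their annotation. The members, lists, motifs and limits were chosen with earlier results of these data known. Alternatives changed the scale, pseudocount, minimum values, main transcript, score summary, base weights, score placement and coefficient.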

Additional observations from a re-analysis of the deposited data

How the results depend on the processing

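No paired analysis was possible because the authors pooled the replicates into single profiles, which also prevents leaving out a replicate. No member has an Ensembl canonical transcript of matching length, so the regions could not be repeated with it. Of the values that answer a comparison, 206 stayed on their side of the limit under an alternative or, for counts, within 1.5 times, although 13 of these, under the limit in both settings, changed sign. Among values of single genes, regions and blocks, 1975 stayed on their side, 102 of them with another sign, 106 no longer passed the limit, 51 passed it newly, 59 moved and 8 turned. Of the 59, 41 were correlations under Spearman's rho, where 77 did not move. The values that answer a comparison and did not stay follow. Centring the RPKM ratio on all main transcripts gave 1 member past 2-fold in icSHAPE and 2 in icLASER. An RPKM of at least 20 in both profiles left 7 of 11 members lower in vivo in icSHAPE, 8 of 12 in icLASER, medians of -0.02 and -0.10 on the log2 scale, and 0 past 2-fold in icLASER. With canonical transcripts 0 passed 2-fold in icLASER and 2 were called lower by mean score. Taking the share of nucleotides at or above 0.5 in place of the mean score left 0 members called in icSHAPE and 0 in icLASER. By region it gave, in icSHAPE, 0 higher and 1 lower in coding sequence and 2 higher in the 3′ UTR, and in icLASER 1 higher and 0 lower in coding sequence. With it 26.3% of isoform blocks were lower in icSHAPE in vivo. It also turned the block minus rest difference in HNRNPA2B1 ENST00000463181 (0.000724) and HNRNPK ENST00000483135 (0.0144) for icSHAPE in vivo, in HNRNPK ENST00000376256 for icSHAPE in vitro (0.00606) and icLASER in vitro (0.0119), in SRSF3 ENST00000620242 for icLASER in vivo (0.00418) and in SRSF9 ENST00000548326 for icLASER in vitro (0.00702). Equal weight of the 4 bases turned it in HNRNPD ENST00000513584 for icLASER in vivo (0.0642) and HNRNPDL ENST00000630114 for icLASER in vitro (0.0156). With each profile divided by its own mean, 14 members lay above 0 and 0 were called in icSHAPE, and by region 0 were higher and 2 lower in coding sequence and 1 lower in the 3′ UTR. Among members with under 20% shared words, chosen after seeing the data, 1 was called higher in icSHAPE and 0 lower in icLASER. In coding sequence alone the icLASER difference was -0.0713 for UAGGG, 0.0140 for UUUUU and -0.0500 for AUUUA in the members, and 0.00433 for UUUUU and -0.0505 for GAAGAA in the other genes, where the icSHAPE difference for AUUUA was 0.0640. The members' restriction to coding sequence was chosen after seeing the data. Assigning scores to the next nucleotide upstream gave 0.0444 for UAGGG in icLASER. Spearman's rho in place of r gave a median of 0.444 between conditions in icLASER. Except where the alternative itself leaves fewer members, the cause was not tested. Read depth is unknown, so the precision of a single score cannot be stated.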
